A study of Arabidopsis thaliana with 32 samples.

Results

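The phosphate starvation response genes described here are 10 named Arabidopsis loci, picked out by locus number from a list drawn up with earlier results of these data known, among the 30385 loci of the array table. They are the phosphate transporters PHT1;1 (AT5G43350) and PHT1;4 (AT2G38940), the PHO1 family member PHO1;H1 (AT1G68740), the SPX-domain proteins SPX1 (AT5G20150) and SPX3 (AT2G45130), the purple acid phosphatase PAP17 (AT3G17790), the ribonuclease RNS1 (AT2G02990), the sulfolipid enzymes SQD1 (AT4G33030) and SQD2 (AT5G01220), and the kinase PPCK1 (AT1G08650). All 10 were found in the table.

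Plants take up phosphorus as inorganic phosphate. When it is scarce, the transcription factor PHR1 and its relatives switch on a common set of genes, and SPX proteins hold PHR1 back when phosphate is plentiful. The response raises uptake through high-affinity transporters of the PHT1 family in the root epidermis and root hairs, frees phosphate from organic compounds by secreted phosphatases and ribonucleases, and replaces membrane phospholipids by sulfolipids and galactolipids. Several of these genes are widely used as reporters of the plant's phosphate status.

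Gene activity was measured in whole seedlings of the sahh1 mutant and of Columbia wild type at the ages of 1, 4, 7 and 10 days, with 4 single-colour (Cy3) arrays for each of the 8 combinations. In sahh1 the enzyme S-adenosylhomocysteine hydrolase 1 is deficient, which removes the by-product of methylation by S-adenosylmethionine, and the study compared its transcriptome with wild type at each age. The labels name neither the sahh1 allele nor any phosphate treatment, so the values describe seedlings of different age and genotype and not starved against supplied plants. Whole seedlings were extracted, so fewer cells of a type and less RNA per cell cannot be told apart.

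The deposited intensities are RMA-normalized values on a linear scale, and each is read here mainly against the same locus in other samples. The exceptions are percentiles among all loci, counts of genes above the lower quartile, and summed marker intensities, in which bright loci weigh most. Within every one of the 8 groups the arrays fell into 2 close pairs, the first with the second and the third with the fourth. The log2 values of each pair were averaged into a single sample, which leaves 2 samples per group. The labels do not say that the samples came from separate cultures, so p values measure the spread between these samples, which may be technical. The median array intensity lay between 995 and 1054 at day 1, 449 and 493 at day 4, 1793 and 1945 at day 7, and 956 and 982 at day 10. The widest gap within a group was between the sahh1 samples of day 4, whose log2 difference had an SD of 0.687 across bright loci. Elsewhere this SD was 0.160 to 0.313. The targeted gene SAHH1 (AT4G13940, named HOG1 in the reference) had 41.6% of the wild-type level in sahh1 at day 1, 34.5% at day 4, 71.7% at day 7 and 58.8% at day 10, with limma adjusted p of 0.0117, 0.0144, 0.723 and 0.276 in that order.

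Genotype differences below are log2 values of sahh1 minus those of wild type, each with the standard error (SE) of a limma fit over all loci. A gene is called where its Benjamini-Hochberg adjusted p is under 0.05. In the plot of intensity by sample, most of the 10 genes differ far more between ages than between genotypes on the deposited scale, where the arrays of each age also have their own median.

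**Figure D1:**
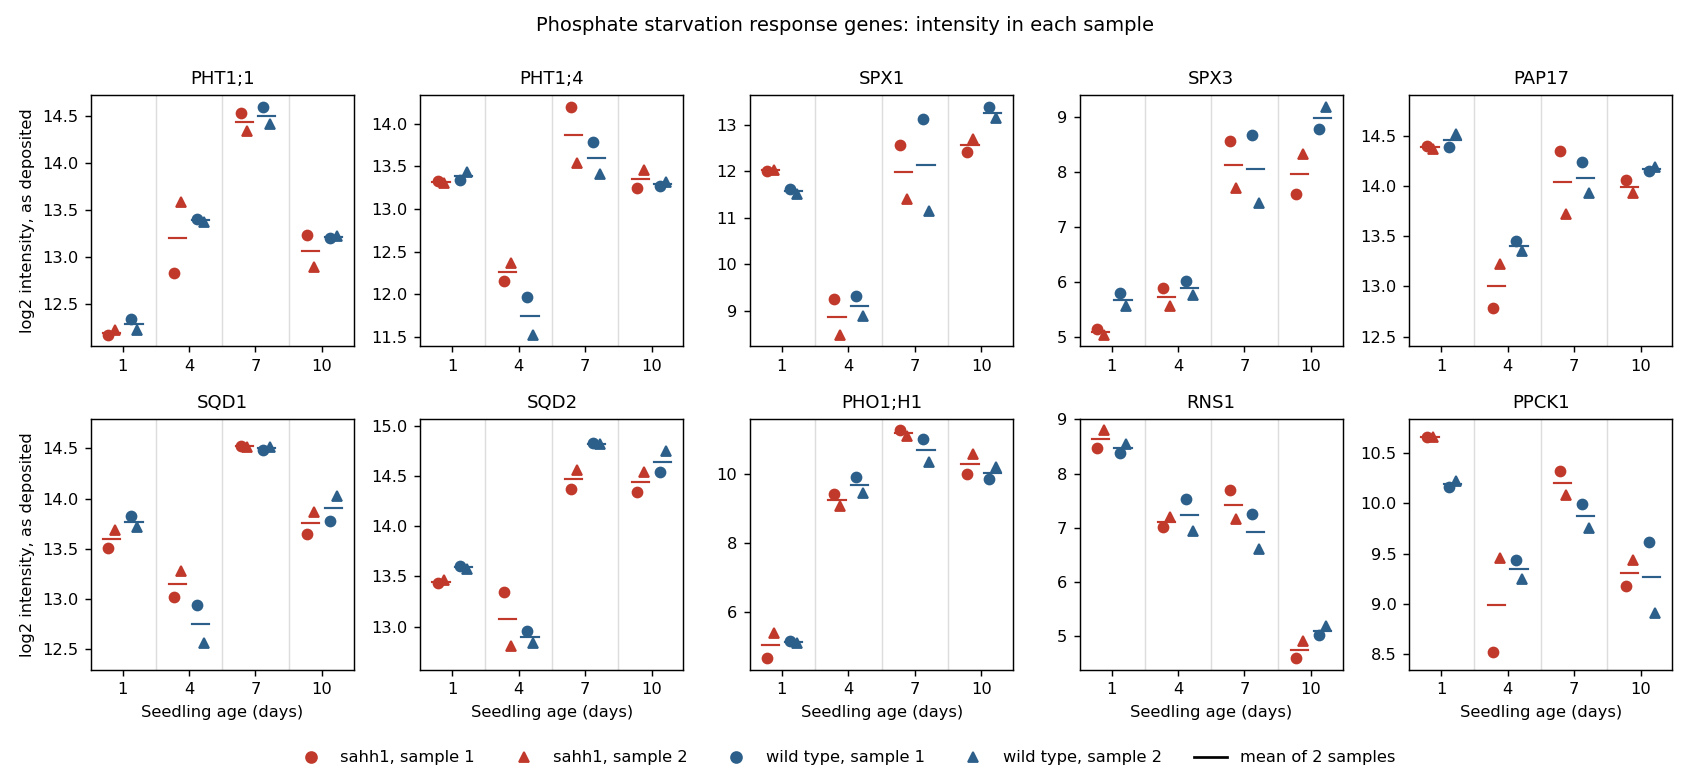
Log2 intensity as deposited (vertical axis, its range set per gene) of the 10 phosphate starvation response genes at each seedling age in days (horizontal axis). Red marks are sahh1 and blue marks wild type, circles are sample 1 and triangles sample 2 of a group, and lines are means of 2 samples. Samples of SPX1 and SPX3 spread widest at day 7, where SPX1 had intensities of 6056 and 2700.2 in sahh1 against 8991 and 2281 in wild type.

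No gene of the 10 was called in either direction between sahh1 and wild type, at any of the 4 ages. At day 1, limma called 0 of 10, against 2.46% of all loci, at day 4 0 of 10 against 1.61%, at day 7 0 of 10 against 0.629%, and at day 10 0 of 10 against 1.02%. Without adjustment, p was under 0.05 for 0, 2, 0 and 1 of the 10 at days 1, 4, 7 and 10, against 7.44%, 15.1%, 7.47% and 6.98% of all loci. The F test over the 4 ages called none (lowest adjusted p of a member 0.572, against 3.22% of loci called). The median difference of the 10 was -0.08 at day 1, -0.17 at day 4, 0.05 at day 7 and -0.16 at day 10, beside -0.02, 0.02, 0.01 and -0.01 over all loci. Of the 40 values, 28 had a 95% interval lying within 2-fold of no change in either direction, among them all 4 ages of PHT1;1, PAP17, SQD1 and SQD2. For SPX1 the interval reached past 2-fold at all 4 ages, so a change of that size could not be detected there.

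PHT1;1 is a high-affinity transporter that brings phosphate into root cells. Its intensity in sahh1 was 4625 and 4782 at day 1, 7299 and 12301 at day 4, 23747 and 20831 at day 7, and 9630.1 and 7631 at day 10. In wild type it was 5198 and 4809.9 at day 1, 10868 and 10652 at day 4, 24850.2 and 21810.4 at day 7, and 9446 and 9575 at day 10. The genotypes overlapped at days 4, 7 and 10, and at day 1 both sahh1 samples were slightly below both wild-type samples. The difference was between -0.18 and -0.07 at the 4 ages (SE 0.21), the narrowest range over ages among the 10 genes. Without sahh1 sample 2 of day 4, which lay above wild type, a single sahh1 sample was left at that age and the difference was -0.56. PHT1;1, PHT1;2 and PHT1;3 are neighbouring genes of near-identical sequence, and probes may share signal between them.

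PHT1;4 is the other main root transporter of the family. It had intensities in sahh1 of 10329 and 10141 at day 1, 4558 and 5281 at day 4, 18802 and 11888 at day 7, and 9744 and 11290.3 at day 10. Wild type had 10397 and 11071 at day 1, 4005 and 2948 at day 4, 14093 and 10935 at day 7, and 9893 and 10215 at day 10. At day 4 both sahh1 samples, and all 4 sahh1 arrays, lay above wild type. The difference there was 0.51 ± 0.22 (95% interval 0.02 to 1.01, unadjusted p = 0.0422), which did not pass after adjustment by limma (adjusted p = 0.308). At the other ages it was -0.07, 0.27 and 0.06, and at days 7 and 10 the samples of the genotypes overlapped.

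PHO1;H1 belongs to the family of PHO1, the protein that exports phosphate into the xylem. It was dim at day 1, with 25.1 and 42.1 in sahh1 and 35.7 and 34.4 in wild type. In sahh1 it then had 676 and 536 at day 4, 2463 and 2191 at day 7, and 1011 and 1523 at day 10. In wild type it had 956 and 689 at day 4, 2045 and 1309 at day 7, and 919 and 1180.0 at day 10. The sahh1 samples were below wild type at day 4 (-0.43 ± 0.30) and above it at day 7 (0.51 ± 0.30), and neither difference passed (limma adjusted p = 0.556 and 0.863).

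SPX1 and SPX3 are small SPX-domain proteins whose own genes are induced by low phosphate, and SPX1 inhibits PHR1 when phosphate is present. SPX1 had intensities in sahh1 of 4142 and 4172 at day 1, 609 and 357 at day 4, 6056 and 2700.2 at day 7, and 5502 and 6674 at day 10. In wild type it had 3153 and 2929 at day 1, 635 and 472 at day 4, 8991 and 2281 at day 7, and 10729.7 and 9030.4 at day 10. All sahh1 arrays were above wild type at day 1 and below it at day 10, with differences of 0.45 ± 0.54 and -0.70 ± 0.54. Neither was called, and the unadjusted p was 0.418 and 0.219. Sample 1 minus sample 2 was -0.01 in sahh1 and 0.11 in wild type at day 1, and -0.28 and 0.25 at day 10. At day 7 it was 1.17 and 1.98, and this spread enters the SE at every age.

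SPX3 lay among the dimmer loci at day 1, between the percentiles 25.2 and 31.8 of all loci, and at day 4, between 11.6 and 36.3. Its low values are the least exact. It had 35.1 and 32.7 in sahh1 at day 1, 59.3 and 47.4 at day 4, 377 and 208 at day 7, and 194 and 319.7 at day 10. Wild type had 55.4 and 47.3 at day 1, 64.8 and 53.9 at day 4, 406 and 172 at day 7, and 439 and 581 at day 10. At day 10 both sahh1 samples lay below both wild-type samples, as did all 4 arrays, and the difference was the largest among the 40 values, -1.02 ± 0.39 (95% interval -1.88 to -0.16). The unadjusted p was 0.0246 and the limma adjusted p 0.517, so it was not called. It was called with the 32 arrays taken as replicates (limma adjusted p = 0.0314) and with the sample number as a replicate block (0.0340). The first counts the close pairs of arrays as separate replicates. For the second, the labels tie no sample number to a shared culture. The sample differences of the genotypes correlated at -0.168 over bright loci at day 10.

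PAP17 is an acid phosphatase, and RNS1 a secreted ribonuclease that frees phosphate from RNA. PAP17 had intensities in sahh1 of 21631 and 21180.3 at day 1, 7064 and 9563 at day 4, 20884 and 13524 at day 7, and 17068 and 15606 at day 10. Wild type had 21517 and 23478 at day 1, 11229 and 10450.1 at day 4, 19288 and 15626 at day 7, and 18201 and 18737 at day 10. At days 4 and 10 the sahh1 arrays were lower than every wild-type array, by -0.40 ± 0.21 and -0.18 ± 0.21, and neither was called (unadjusted p = 0.0828 and 0.412). RNS1 had 355 and 446 in sahh1 at day 1, 129 and 147 at day 4, 208 and 142 at day 7, and 24.1 and 30.1 at day 10. In wild type it had 332 and 375 at day 1, 184 and 122 at day 4, 152 and 97.6 at day 7, and 32.3 and 36.6 at day 10. Its genotypes overlapped at days 1, 4 and 7, and at day 10 both sahh1 samples were below wild type (-0.35 ± 0.27, unadjusted p = 0.219).

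SQD1 makes the sugar head group of sulfolipid, and SQD2 transfers it to the lipid. SQD1 had intensities in sahh1 of 11672 and 13200.0 at day 1, 8284 and 9915 at day 4, 23587 and 23377 at day 7, and 12797 and 14982 at day 10. Wild type had 14531 and 13436 at day 1, 7862 and 6061 at day 4, 22939.9 and 23439 at day 7, and 14080.1 and 16625 at day 10. The sahh1 samples of day 4 were above both wild-type samples, by 0.39 ± 0.17 (95% interval 0.03 to 0.76, unadjusted p = 0.0372), and the limma adjusted p was 0.292. SQD2 had 11041 and 11315 in sahh1 at day 1, 10436 and 7179 at day 4, 21137 and 24182 at day 7, and 20769 and 23765 at day 10. Its wild-type values were 12468 and 12171 at day 1, 7973 and 7337 at day 4, 29131 and 28802 at day 7, and 23793 and 27522 at day 10. All sahh1 arrays of day 7 lay below wild type (-0.36 ± 0.17, unadjusted p = 0.0649, adjusted p = 0.723). The 2 enzymes of the same pathway thus had differences of unlike sign at day 7, 0.02 for SQD1 and -0.36 for SQD2, and the difference between them was not tested.

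PPCK1 phosphorylates PEP carboxylase and so makes it less sensitive to its inhibitor malate. Its intensity in sahh1 was 1619.6 and 1621 at day 1, 368 and 701 at day 4, 1279 and 1088 at day 7, and 579.6 and 693 at day 10. In wild type it was 1147 and 1196 at day 1, 692 and 609 at day 4, 1022 and 865 at day 7, and 786 and 480.0 at day 10. The sahh1 arrays were above all wild-type arrays at days 1 and 7, with differences of 0.47 ± 0.29 and 0.33 ± 0.29, and overlapped them at days 4 and 10. Neither difference was called (unadjusted p = 0.131 and 0.278).

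Counted as arrays, 4 against 4, the genotypes did not overlap for 3 of the 10 genes at day 1, against 16.9% of all loci, for 2 at day 4 against 12.5%, for 2 at day 7 against 13.2% and for 3 at day 10 against 13.2%. These were SPX1 and PPCK1 higher and SPX3 lower in sahh1 at day 1, PHT1;4 higher and PAP17 lower at day 4, PPCK1 higher and SQD2 lower at day 7, and SPX1, SPX3 and PAP17 lower at day 10. With 2 samples in each group the smallest possible p of an exact test is 0.333. All but PHT1;1 and PAP17 had differences of both signs over the 4 ages. The limma test of whether the genotype difference varied with age called 0 of 10 (lowest adjusted p 0.716, for SQD2, against 0.615% of loci). With the 32 arrays as replicates it called 3, namely SQD1 (adjusted p = 0.0354), SQD2 (0.0263) and PHO1;H1 (0.0461).

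**Figure D2:**
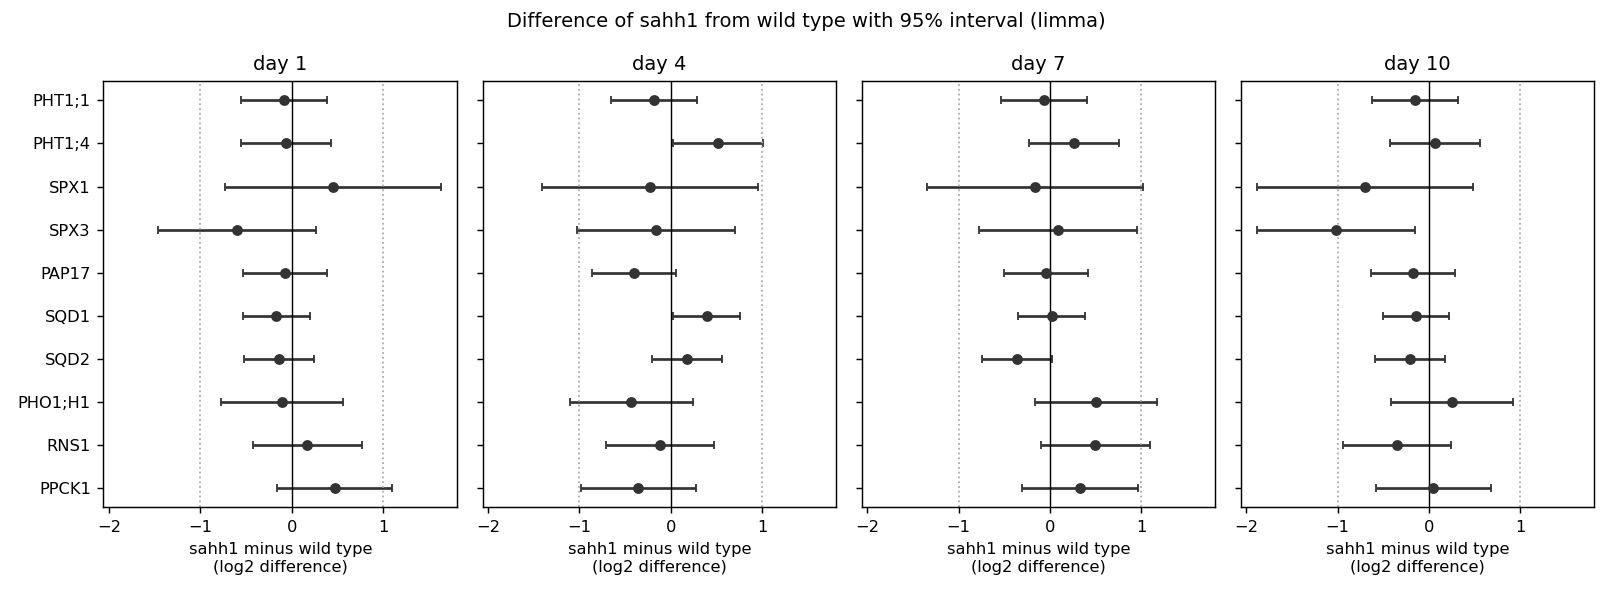
Difference of sahh1 from wild type (horizontal axis, log2) for the 10 genes at each age, with the 95% interval of the limma fit, 2 samples per group. The solid line marks no difference and the dotted lines a 2-fold change in either direction. The interval excludes 0 for PHT1;4 and SQD1 at day 4 and for SPX3 at day 10, before adjustment, and 28 of the 40 intervals lie within the dotted lines.

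Root hair markers were lower in sahh1 at some of the same ages. Of 10 root hair genes, 3 were called lower in sahh1 at day 4 and 7 at day 10, with median differences of -1.26 and -2.03. Their summed intensity at day 10 was 1218 to 1684 in sahh1 against 5204 to 6658 in wild type, 7 to 8 of the 10 lay above the lower quartile of loci in sahh1 against 10 in wild type, and none was at 0. The sum at day 4 was 5615 to 6257 in sahh1 against 10444 to 14168 in wild type. At day 7, with 0 called, it was 5036 to 7332 in sahh1 against 9896 to 12446 in wild type, and at day 1, also with 0 called, 71118 to 75866 in sahh1 against 69841 to 77919 in wild type. Of 7 other root genes, 2 were called lower at day 4 and 0 at the other ages. None of 8 leaf photosynthesis genes was called at any age. The part of root hairs in the values of the phosphate genes was not tested. Of the PHT1 transporters among the 10, which act in root hairs, PHT1;1 differed by -0.18 at day 4 and -0.15 at day 10. PHT1;4 differed by 0.51 at day 4 and 0.06 at day 10.

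Levels at different ages can be compared only after a common normalization, since the median over all loci on the deposited scale shifted by -0.48, 1.40 and -0.69 between successive ages in wild type, and by -0.54, 1.43 and -0.69 in sahh1. Ages were therefore compared after quantile normalization over the 32 arrays, which gives changes relative to all loci. Age and array processing specific to an age cannot be told apart. Of the 60 comparisons of a gene between successive ages, 14 were called.

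Between days 1 and 4, PHT1;1 and PHO1;H1 rose in both genotypes. The normalized log2 level of PHT1;1 at day 4 was 13.67 and 14.28 in sahh1, against 12.02 at most at day 1, and in wild type 14.11 and 14.09, against 12.13 and 12.04. The rise was 1.96 ± 0.20 in sahh1 (limma adjusted p = 1.36e-05) and 2.01 ± 0.20 in wild type (1.03e-05), about 3.89-fold and 4.04-fold. PHO1;H1 was at 10.39 and 10.14 in sahh1 at day 4, against 5.29 and 5.92 at day 1, and in wild type at 10.94 and 10.50, against 5.91 and 5.80. The rise was 4.66 ± 0.28 in sahh1 (adjusted p = 3.32e-07) and 4.87 ± 0.28 in wild type (2.40e-07). At day 1 PHO1;H1 lay between the percentiles 21.8 and 28.4 of all loci, so the size of its rise is not exact. Both genes kept these calls and this direction under all 19 alternatives, the deposited scale included, with rises of 1.01 to 2.26 for PHT1;1 and 4.21 to 5.86 for PHO1;H1.

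The other calls of this step were in sahh1, where 5 of 10 genes were called (background 49.1% of all loci), against 2 of 10 in wild type (51.8%). SPX1 fell by 1.90 ± 0.57 in sahh1 (adjusted p = 0.0172), at 10.25 and 9.64 at day 4 against 11.85 and 11.82 at day 1. This call was lost without sahh1 sample 1 or 2 of day 1 (0.0697 and 0.0640) or sample 2 of day 4 (0.0896). In wild type SPX1 differed by -1.24 ± 0.57 (adjusted p = 0.0900). SQD1 rose by 0.56 ± 0.16 (0.0118) and SQD2 by 0.65 ± 0.16 (0.00628) in sahh1 relative to all loci, while both were lower at day 4 on the deposited scale (-0.45 and -0.37). The SQD1 call was lost without sahh1 sample 1 of day 1 (0.0866) or sample 2 of day 4 (0.0563). Whether these steps differ between genotypes is covered by the test of the genotype difference over ages above, which called none.

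Between days 4 and 7 limma called 2 of 10 genes in sahh1, against 11.6% of loci, and 4 of 10 in wild type, against 22.3%. RNS1 fell relative to all loci by 1.55 ± 0.29 in sahh1 (adjusted p = 0.00922), at 6.70 and 6.25 at day 7 against 7.64 and 8.41 at day 4, and by 2.17 ± 0.29 in wild type (0.00113), at 6.32 and 5.83 against 8.52 and 7.98. On the deposited scale the same steps were 0.32 in sahh1 and -0.30 in wild type, and neither was called. Without sahh1 sample 2 of day 7 the call in sahh1 was lost (0.0714). SPX3 rose by 1.49 ± 0.40 in sahh1 (0.0377), at 7.49 and 6.72 at day 7 against 5.97 and 5.26 at day 4. SPX3 was dim at day 4, between the percentiles 11.6 and 36.3 of all loci, so the size of its rise is not exact. It was no longer called without sahh1 sample 2 of day 4 (0.148), sample 1 of day 7 (0.221) or sample 2 of day 7 (0.0615), without any sample of day 1 (0.0586 in wild type and 0.0588 in sahh1), without either wild-type sample of day 10 (0.0509), or with cyclic loess (0.0579).

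In wild type SQD2 rose between days 4 and 7 by 0.64 ± 0.16 (adjusted p = 0.0183), at 14.36 and 14.34 at day 7 against 13.76 and 13.66 at day 4. The call was lost without wild-type sample 1 or 2 of day 4 (0.0502 and 0.0809) or sample 1 or 2 of day 7 (0.0854 and 0.0789). PHO1;H1 was lower at day 7 by -0.998 ± 0.28 (0.0305) and PPCK1 by -1.51 ± 0.31 (0.00799) relative to all loci, and both were higher on the deposited scale (1.01 and 0.53). The PHO1;H1 call was lost without wild-type sample 1 of day 4 (0.157) or sample 2 of day 7 (0.198), and the PPCK1 call without sample 2 of day 7 (0.0518).

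Between days 7 and 10 only RNS1 in sahh1 was called, 1 of 10 genes against 0.467% of loci, and in wild type 0 of 10 against 0.293%. RNS1 fell by 1.59 ± 0.29 in sahh1 (adjusted p = 0.0477), to 4.71 and 5.07 at day 10. The call was lost without any 1 of 14 samples outside day 4 of sahh1, with adjusted p between 0.0567 and 0.275. The largest difference in wild type was in SPX1, at 13.39 and 13.16 at day 10 against 12.36 and 10.27 at day 7 (1.96 ± 0.57, adjusted p = 0.131). SPX3 followed with 8.70 and 9.12 against 7.61 and 6.55 (1.83 ± 0.40, adjusted p = 0.0757). PHT1;1 was lower at day 10 by -0.79 ± 0.20 in sahh1 (adjusted p = 0.0928) and -0.73 ± 0.20 in wild type (0.113). In wild type the unadjusted p of this step was under 0.05 for 6 of the 10 genes, against 16.6% of all loci. Of these, PHT1;1 and RNS1 were lower at day 10, and SPX1, SPX3, PAP17 and SQD2 higher. In sahh1 it was under 0.05 for the same genes except SPX3, in the same directions. The share of all loci was not counted for sahh1.

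Leaving out a sample added calls as well. Without either sahh1 sample of day 4, PHT1;1 was called lower at day 10 than at day 7 in sahh1 (adjusted p = 0.0161) and wild type (0.0244), SPX3 higher at day 10 than at day 7 in wild type (0.0295) and SQD2 higher at day 10 than at day 7 in sahh1 (0.0252). The same omissions called SQD2 higher at day 4 than at day 1 in wild type (0.0306) and PAP17 lower at day 7 than at day 4 in wild type (0.0351), a PAP17 call also made without either sahh1 sample of day 7 (0.0236). With sahh1 sample 1 alone at day 4, PPCK1 and RNS1 differed by -1.08 and -1.02 between days 1 and 4 in sahh1. With sample 2 alone, PPCK1 differed by -1.32 between days 4 and 7. SPX1 in wild type was called lower at day 4 than at day 1 without either wild-type sample of day 7 (0.0151). With sample 1 alone at day 7, SPX1 in wild type differed by 2.21 between days 4 and 7.

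**Figure D3:**
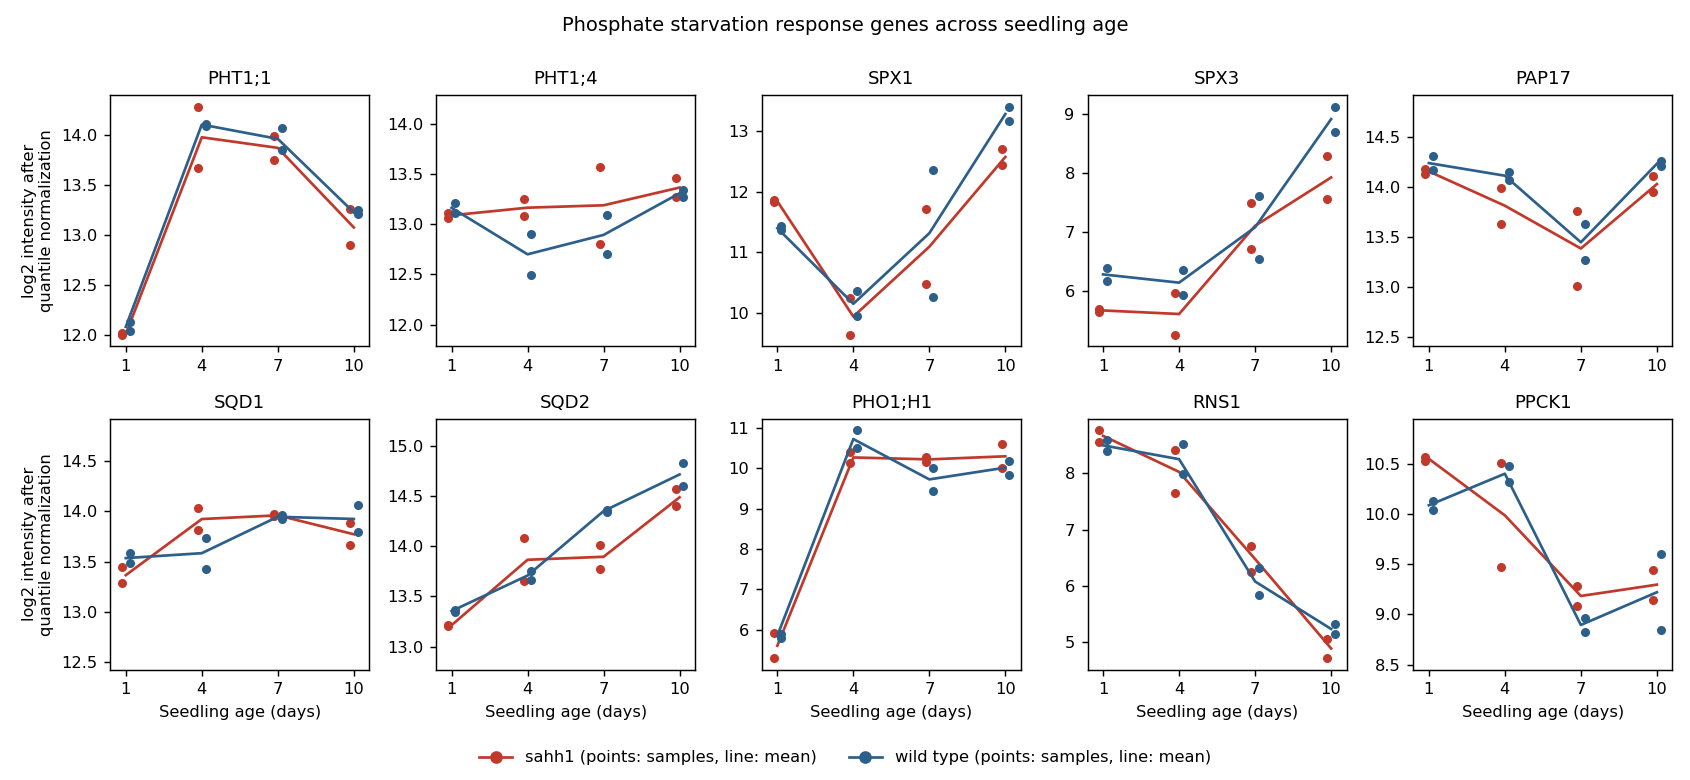
Log2 intensity after quantile normalization over 32 arrays (vertical axis, its range set per gene) against seedling age in days. Red is sahh1 and blue wild type, points are samples and lines join the means of 2 samples. PHT1;1 and PHO1;H1 rise between days 1 and 4 in both genotypes on either scale, whereas the fall of RNS1 between days 4 and 7 is seen after quantile normalization and not as a called change on the deposited scale.

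The 10 genes did not share 1 course over age. The root mean square (RMS) difference between 2 centred courses of 8 group means was lowest for PHT1;4 and SQD1 (0.25 log2) and highest for PHO1;H1 and RNS1 (3.01). Among 10356 loci with a symbol, the one nearest in course to PHT1;1 was PPC2 (RMS 0.15), which encodes a PEP carboxylase. For PHO1;H1 it was PIF7 (0.17), for SPX1 ENODL1 (0.28), for SPX3 UMAMIT23 (0.26), for RNS1 PER4 (0.18) and for PPCK1 DRT100 (0.16). For the genes with flatter courses it was RNEE/G for PHT1;4 (0.07), WDR5b for PAP17 (0.11), PDE338 for SQD1 (0.06) and AtCaN2 for SQD2 (0.12). These are descriptions over 8 group means that share arrays and normalization.

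The samples of day 7 differed within both genotypes for several of these genes. SPX1 was higher in sample 1 than in sample 2 by 1.17 in sahh1 and 1.98 in wild type on the log2 scale, SPX3 by 0.86 and 1.24, and RNS1 by 0.54 and 0.64. These 3 of 10 genes passed 0.5 the same way in both genotypes, against 8.48% of all loci in either direction and 3.69% with sample 1 higher. At the other ages 0 of 10 did. Over the brighter loci the sample differences of the 2 genotypes correlated at 0.753 at day 7, so the shift was not particular to these genes. Other genes of the response are given beside them, chosen after their values were seen. PPsPase1, a pyrophosphatase induced by low phosphate, was higher in sample 1 by 1.19 in sahh1 and 2.56 in wild type, MGD3, which makes galactolipid, by 0.96 and 1.70, and IPS1, a non-coding RNA that sequesters miR399, by 0.28 and 1.57, while MGD2, another enzyme of galactolipid synthesis, differed by -0.07 and -0.39. Sample numbers are only names, and the cause of the difference was not tested. Within a sample number, SPX1 at day 7 differed between genotypes by -0.57 in sample 1 and 0.24 in sample 2.

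**Figure D4:**
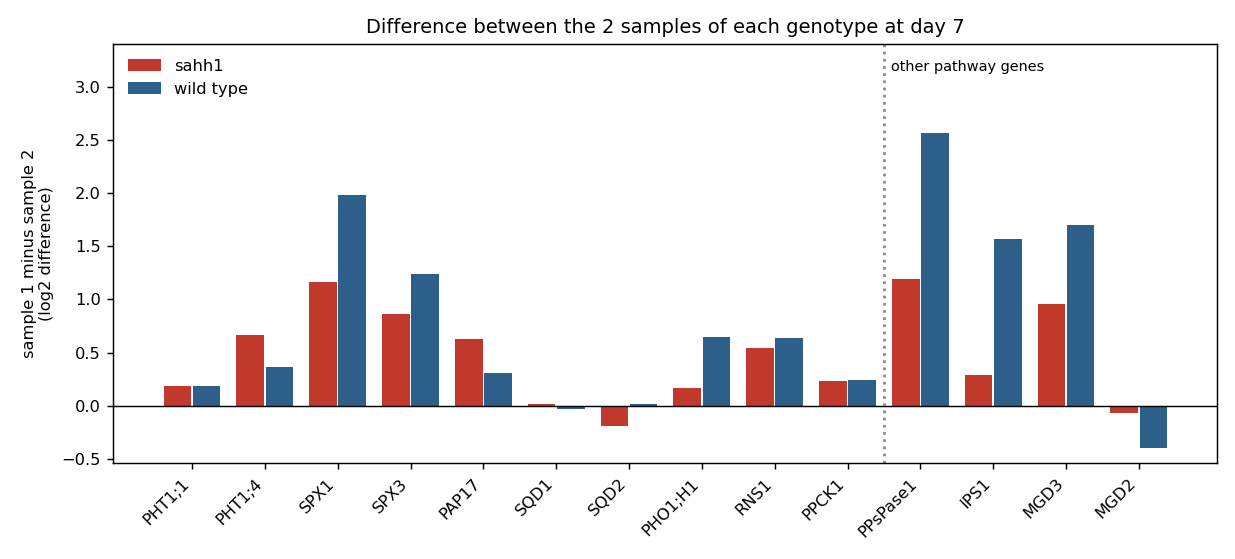
Sample 1 minus sample 2 (vertical axis, log2 difference of the deposited intensity) at day 7 for the 10 genes and, right of the dotted line, 4 other genes of the pathway. Red bars are sahh1 and blue bars wild type, and each bar is 1 difference between 2 samples. SPX1, SPX3 and RNS1 exceed 0.5 in both genotypes, while SQD1 lies near 0 in both.

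Beside the 10, 46 other genes of phosphate transport, sensing and regulation, phosphate recovery, lipid remodelling and PEP carboxylase were read from a list. Limma called 0 of 46 between genotypes at each of the 4 ages, with the backgrounds given above, and p was under 0.05 without adjustment for 2, 7, 3 and 5 of them at days 1, 4, 7 and 10. Their median difference was -0.0025, -0.15, 0.01 and -0.10 in the order of age. The difference was below 0 for 35 of the 46 at day 4 and for 31 at day 10, the ages with the lowest medians. Of the 18 sensing and regulation genes, 17 had a difference below 0 at day 4, while over all loci 52.0% were above 0. All these genes were read from the same 2 samples per group, so their signs are not independent, and the counts were not tested. The sahh1 samples of day 4 also differed most from each other (SD 0.687 across bright loci).

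Among the 12 genes with the lowest p of the F test over ages, PPsPase1 had the widest difference at day 10. Its intensity was 289.6 and 963 in sahh1 against 3048 and 2147 in wild type, -2.28 ± 0.74 (unadjusted p = 0.0106, limma adjusted p = 0.339). IPS1 had 37.3 and 108 in sahh1 against 156 and 242 in wild type at day 10 (-1.62 ± 0.51, adjusted p = 0.299). MGD2 had 168 and 517 in sahh1 against 548 and 715 in wild type (-1.09 ± 0.41, adjusted p = 0.4998). At day 10 the samples of the genotypes did not overlap for these 3 genes, chosen by low p. Among the 10 members they did not overlap for SPX1, SPX3, PAP17, SQD2 and RNS1, and overlapped for the others. The share of all loci without overlap was not counted for 2 samples against 2. For 4 arrays against 4, a stricter measure, it was 13.2% at day 10. With 2 samples against 2 an exact test cannot go below p = 0.333. In each of the 3 genes sahh1 sample 1 was well below sample 2. With the 2 arrays of a sample kept as a random block, PPsPase1 (0.0119) and IPS1 (0.0151) were called. With only the lower sahh1 sample of day 10 kept, sample 1, MGD2 differed by -1.90.

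At day 4 PHT1;2, the neighbour of PHT1;1, had 1618 and 626 in sahh1 against 2666 and 2806 in wild type, -1.44 ± 0.36 (adjusted p = 0.0776). With only the lower sahh1 sample of day 4 kept, sample 2, the difference of PHT1;2 was -2.13. PHT1;2 was called with arrays in a random block (limma adjusted p = 5.81e-04). ZAT6, a zinc finger repressor of phosphate responses in roots, had 235 and 239 in sahh1 against 642 and 363 in wild type (-1.03 ± 0.31, adjusted p = 0.144). Smaller differences at day 4 were -0.60 for PHL1, a relative of PHR1, -0.45 for AT1G63010, -0.37 for SIZ1, a SUMO ligase that acts on PHR1, and 0.90 for MYB62, a transcription factor of the response. After quantile normalization MYB62 differed by 1.75 (limma adjusted p = 0.0403) and was called. So was PHT1;3, at -1.76 (0.0212), and neither was called on the deposited scale. Some genes were named after fits that kept a single sahh1 sample of day 4. With sample 2 alone, AT4 differed by -2.11 and WRKY75 by -1.97. With sample 1 alone, AT1G63010 differed by -0.52, SPX4 by -0.54, PHO2 by -0.53, SIZ1 by -0.42 and PPC1 by -1.01. PHO1, which loads phosphate into the xylem, had 7151 and 7494 in sahh1 against 5011 and 5058 in wild type at day 1 (0.54 ± 0.17, adjusted p = 0.215). NPC5, a phospholipase, was at -0.74 at day 1. PHT1;8, a transporter, was at -0.66 at day 7 and -0.51 at day 10.

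**Figure D5:**
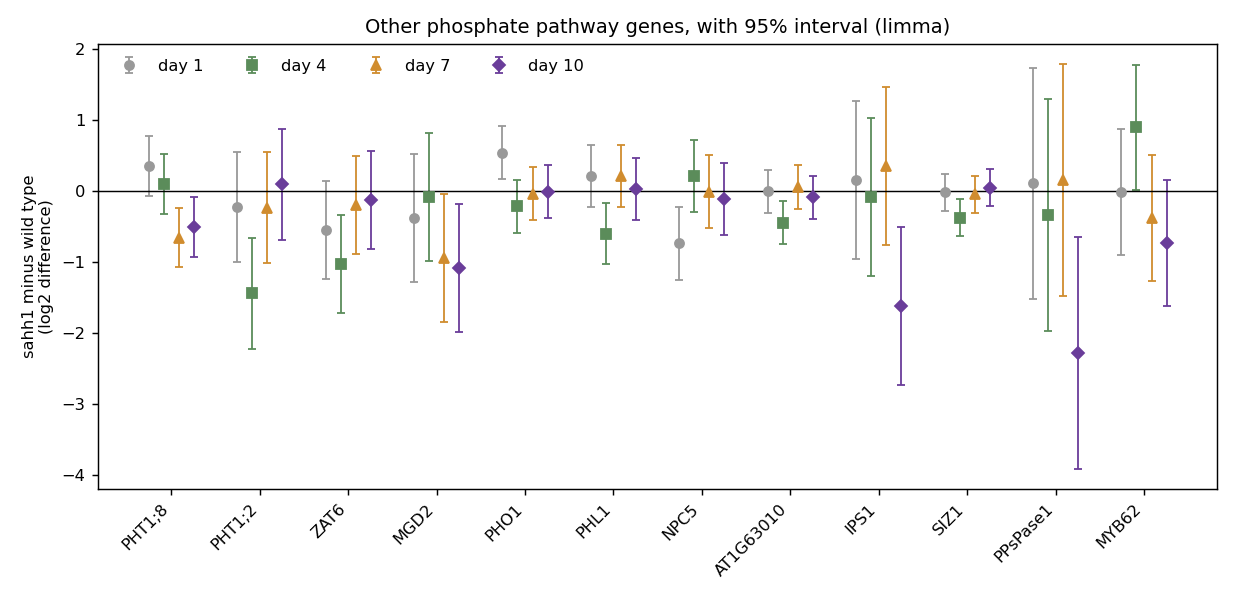
Difference of sahh1 from wild type (vertical axis, log2) at days 1, 4, 7 and 10 for the 12 other genes of the pathway with the lowest p of the F test over ages. Points are limma estimates and bars their 95% intervals, with 2 samples per group. PPsPase1 at -2.28 and IPS1 at -1.62 lie lowest at day 10, and none of the 12 passed adjustment at any age.

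Between days 1 and 4 the other groups of the pathway moved as follows after quantile normalization, beside a background of 49.1% of loci called in sahh1 and 51.8% in wild type. Of 6 phosphate recovery enzymes, 6 were called lower at day 4 in sahh1 and 4 in wild type, and those called were lower on the deposited scale too. The other 2 were also below 0 in wild type, without being called. PPsPase1 fell by 4.11 ± 0.76 in sahh1 (limma adjusted p = 0.00103) and by 3.45 ± 0.76 in wild type (0.00293). AT1G17710, a phosphatase of the response listed as PEPC1 in the reference and chosen after its values were seen, fell by 4.39 ± 0.54 in sahh1 and fell by 4.12 ± 0.54 in wild type. Among 18 sensing and regulation genes limma made 9 calls upward and 2 downward in sahh1, and 10 upward and 2 downward in wild type. Of those called higher, 5 in each genotype kept their sign on the deposited scale, among them ZAT6 with 2.10 ± 0.32 in sahh1 (adjusted p = 3.04e-04) and 2.63 ± 0.32 in wild type (5.63e-05). Of 5 PEP carboxylase genes and kinases, 3 were called higher in each genotype and were higher on the deposited scale too, with PPC2 at 2.03 ± 0.18 in sahh1 and 1.94 ± 0.18 in wild type. Between days 7 and 10 limma called 0 of the 46 in either genotype.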

How the data were processed

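Whole Arabidopsis seedlings were measured on 32 single-colour NimbleGen arrays of total RNA (RNeasy Plant Mini Kit, per the labels' protocols). Per the submitters' processing notes the authors normalized the arrays with RMA, version not given in the sources used here. The deposited values are linear intensities, 1 for each locus on each array, and were converted to log2 here. Probe-level files were not used. No source names the genome build, and coordinates are left out. Symbols are those of the TAIR10.1 reference table, where 29996 loci matched and 10357 have a symbol, or names that the table lists as synonyms, such as SAHH1 for HOG1, PPsPase1 for PS2 and MGD3 for MGDC. Genes with neither are given by locus number.

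The groups follow the labels. The plan counted 4 arrays per group as replicates. After the data were seen, arrays 1 and 2, and 3 and 4, were averaged, because in all 8 groups the SD of their difference over 15222 bright loci was lower within pairs (0.113 to 0.341) than between them (0.180 to 0.720). That left 16 samples, 2 per group, and this number limits the precision of every value. Genotype contrasts used the deposited scale. Age contrasts and the interaction used quantile normalization over the 32 arrays, and array medians differ by age. limma 3.58.1 in R 4.3.3 fitted 8 group means with 8 residual degrees of freedom and a prior of 3.16 (genotype) or 2.54 (age) degrees of freedom, with Benjamini-Hochberg adjustment over 30385 loci, a threshold of 0.05 and no filter on level. Exact tests of 2 against 2 samples cannot go below p = 0.333.

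The rule named the 10 members, any other pathway gene called between genotypes (0 were), the 12 with the lowest p of the genotype F test, and the locus nearest in course to each member. Other genes were named after their values were seen. The members and lists were chosen with earlier results of these data known. On simulated data for day 1 over 30385 loci, the fit recovered 1, 17, 38 and 49 of 50 loci changed by 0.5, 1, 2 and 4 on the log2 scale, 0 with the wrong sign. Alternatives were other normalizations, filters, weights, priors, replicate definitions and leaving out each sample. Leaving out a sample leaves a single sample in its group, whose spread is then taken from the other groups. No sequences are shown, as no sequence table was used here.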

Additional observations from a re-analysis of the deposited data

How the results depend on the processing

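The count of 0 of 10 members between genotypes held under the 25 alternatives at days 1 and 7. At day 4 it was 3 with the 32 arrays as replicates (PHT1;4, PAP17 and SQD1), and 0 to 1 when a sample was left out. At day 10 it was 1 with 32 arrays and 1 with the sample number as a replicate block, SPX3 in both, and 0 when any sample was left out. The replicate block changed no other call of a member between genotypes. The labels tie no sample number to a shared culture or day, so the samples were not treated as paired. The genotypes' differences of sample 1 from sample 2 were correlated across the 15222 bright loci. The correlation was -0.484, 0.185, 0.753 and -0.168 at days 1, 4, 7 and 10. Same-numbered samples thus deviated together at day 7, in opposite ways at day 1, and were only weakly related at days 4 and 10. Of 1000 values of members under these alternatives 21 had the other sign, 0 of them called. The median difference of the members at day 7, 0.05, was 0.45 without wild-type sample 1 of day 7. The test of the genotype difference over ages called 3 members with 32 arrays.

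Counts between ages moved most. In all, 14 calls became 42 on the deposited scale and 37 with 32 arrays, and lay between 10 and 21 when a sample was left out. Between days 1 and 4 the 5 calls in sahh1 became 8 and 8 (3 to 5 with a sample left out), and the 2 in wild type 9 and 5 (2 to 3). Between days 4 and 7 the 2 in sahh1 became 9 and 5, and 1 with cyclic loess (0 to 3), and the 4 in wild type 8 and 8 (2 to 5). Between days 7 and 10 the 1 in sahh1 became 5 and 5 (0 to 3), and the 0 in wild type 3 and 6, and 1 with cyclic loess (0 to 2). The deposited scale turned directions, since it keeps the shift of all loci. Among differences called on at least 1 of the scales, those in sahh1 turned to -1.06 for PHT1;4, -0.45 for SQD1 and -0.37 for SQD2 between days 1 and 4, to 1.23 for PHT1;1, 1.03 for PAP17, 1.95 for PHO1;H1, 0.32 for RNS1 and 1.22 for PPCK1 between days 4 and 7, and to -0.90 for PHO1;H1 and -0.90 for PPCK1 between days 7 and 10. In wild type they turned to -1.02 for SQD1, -0.69 for SQD2 and -0.85 for PPCK1 between days 1 and 4, and to 1.11 for PHT1;1, 0.68 for PAP17, 1.01 for PHO1;H1 and 0.53 for PPCK1 between days 4 and 7. Differences called on neither scale turned too, between days 7 and 10 in wild type to -0.30 for PHT1;4, -0.18 for SQD2, -0.65 for PHO1;H1 and -0.61 for PPCK1, and in sahh1 to -0.51 for PHT1;4, -0.17 for SPX3, -0.04 for PAP17 and -0.03 for SQD2. SPX3 between days 1 and 4 turned to 0.21 in wild type and 0.64 in sahh1.

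Of the 46 other genes of the pathway, limma called 2 at day 1 with 32 arrays, 1 with a random block and 2 with array weights, and 0 with any sample left out. At day 4 it called 2 after quantile normalization, 9 with 32 arrays, 3 with a random block, 1 with a trend and robust prior, and 0 to 5 with a sample left out. At day 7 it called 1 with 32 arrays and 0 with any sample left out, and at day 10 4 with 32 arrays, 2 with a random block and 0 to 1 with a sample left out.

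With 2 samples per group, a 2-fold change was mostly missed in the simulation of day 1, in which few loci were changed. No change was simulated at the other ages. Low signals of PHO1;H1 and SPX3 at day 1 and RNS1 at day 10 make the size of their changes inexact.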

Other observations

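Seed storage genes, which mark the embryo, were still bright at day 1, with a summed intensity over 8 genes of 62094 to 71483 in sahh1 against 65678 to 71963 in wild type. Of these 8, CRU2 was called lower in sahh1 at day 1. All 8 were lower at day 4 than at day 1 in both genotypes (limma, quantile normalization).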
